A study of Mus musculus with 8 samples.

Results

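The TNF superfamily genes were followed in macrophages sorted from mouse pancreas tumours, 4 samples with high and 4 with low surface MHC class II, which displays peptides for CD4 T cells to read. Members were chosen by name: genes whose symbol begins Tnfsf (ligands) or Tnfrsf (receptors), together with Tnf, Lta, Ltb, Ltbr, Cd40, Cd40lg, Cd27, Cd70, Fas, Fasl, Eda, Edar, Eda2r, Relt and Ngfr. This gave 47 genes on 81 of 56605 probes, and 39 of those genes, with 65 probes, passed a filter for signal above background, among 27997 genes tested. Of the 39, 11 are ligands, 26 are receptors and 2 are transcripts of the locus that holds Tnfsf12 and Tnfsf13.

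Both the MHCII-high group and the MHCII-low group came from female FvBn mice of 8 to 10 weeks with an implanted tumour, with cells sorted by flow cytometry directly into lysis solution, and the genotype field reads "Not provided" for all 8. The series' design text names wild-type, KPC and FLT3-CRE/LSL-YFP mice with normal pancreas or pancreatic cancer, and the labels do not place the 8 samples among these. The numbers 20435, 20436, 20439 and 20442 occur once per group in the sample titles, with no statement of what they stand for. No label calls the 4 samples of a group separate animals, and p-values therefore cover the spread among these 8 samples alone, part of which may be technical.

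TNF superfamily ligands are mostly trimers, made on the cell surface and in part released by proteases, and they bind receptors with cysteine-rich repeats. Many receptors with a death domain recruit adaptors that can activate caspases, while many of the others recruit TRAF proteins. TRAF proteins lead to the transcription factor NF-kB by a classical route and by an alternative route through the kinase NIK. In tumours macrophages and dendritic cells use the family in both directions, as a source of TNF, BAFF and costimulatory ligands for lymphocytes and as responders through TNF receptors, the lymphotoxin beta receptor and CD40.

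Sequences of 3 of the array's 60-base probes bear on how far the values can be read. A probe each of Tnfrsf22 and Tnfrsf23, neighbouring receptor genes that both fell, is shown because similar neighbours could share signal. The longest runs of bases that the pair has in common, 5 bases each, are in capitals (in Tnfrsf23 they overlap). Neither of these printed probes is the brightest of its gene, and the main values of both genes come from the brightest. The brightest Tnfrsf22 probe shares a run of 8 bases with the Tnfrsf23 probe printed here. The probe of Tnfsf10, which encodes TRAIL, is shown because it consists of a 15-base unit, in capitals at its first copy, repeated 4 times.
Tnfrsf22 (mm9 chr7:150826673-150826732, minus strand): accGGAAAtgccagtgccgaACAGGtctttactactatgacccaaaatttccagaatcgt
Tnfrsf23 (mm9 chr7:150865851-150865910, minus strand): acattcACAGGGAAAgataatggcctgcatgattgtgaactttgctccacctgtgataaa
Tnfsf10 (mm9 chr3:27241288-27241347, plus strand): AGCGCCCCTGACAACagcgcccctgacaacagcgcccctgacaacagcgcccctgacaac
Between probes of different genes of the Tnfrsf26, Tnfrsf22 and Tnfrsf23 set, 11 pairs in all, at most 17 to 24 of 60 positions matched in any ungapped alignment and the longest shared run was 5 to 8 bases. Probes were compared with each other and not with the neighbours' transcripts, so shared signal was not tested.

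Values below are log2 signals relative to the 75th percentile of the same array, so that a negative value lies under that percentile, and they are given for the label numbers 20435, 20436, 20439 and 20442 in this order. Differences are MHCII-high minus MHCII-low on the log2 scale, tested with limma and adjusted by Benjamini-Hochberg over all 27997 genes at a threshold of 0.05. At that threshold 6 of the 39 members changed (15.4%), 3 higher and 3 lower in MHCII-high, against 1385 of all genes (4.95%), 755 of them higher (2.70%) and 630 lower (2.25%). Most members thus did not pass. The groups did not overlap for 13 of 39 members (33.3%), against 14.4% of all genes. The median difference was 0.03 over the members and 0.01 over all genes, and the median absolute difference was 0.55 over the members and 0.27 over all genes. By role, 1 of 11 ligands and 5 of 26 receptors passed, and 18 members (46.2%) had an unadjusted p under 0.05, against 19.7% of all genes. The median signal was -0.49 over the members and -1.28 over all genes, and shares among genes of like signal were not compared.

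**Figure D1:**
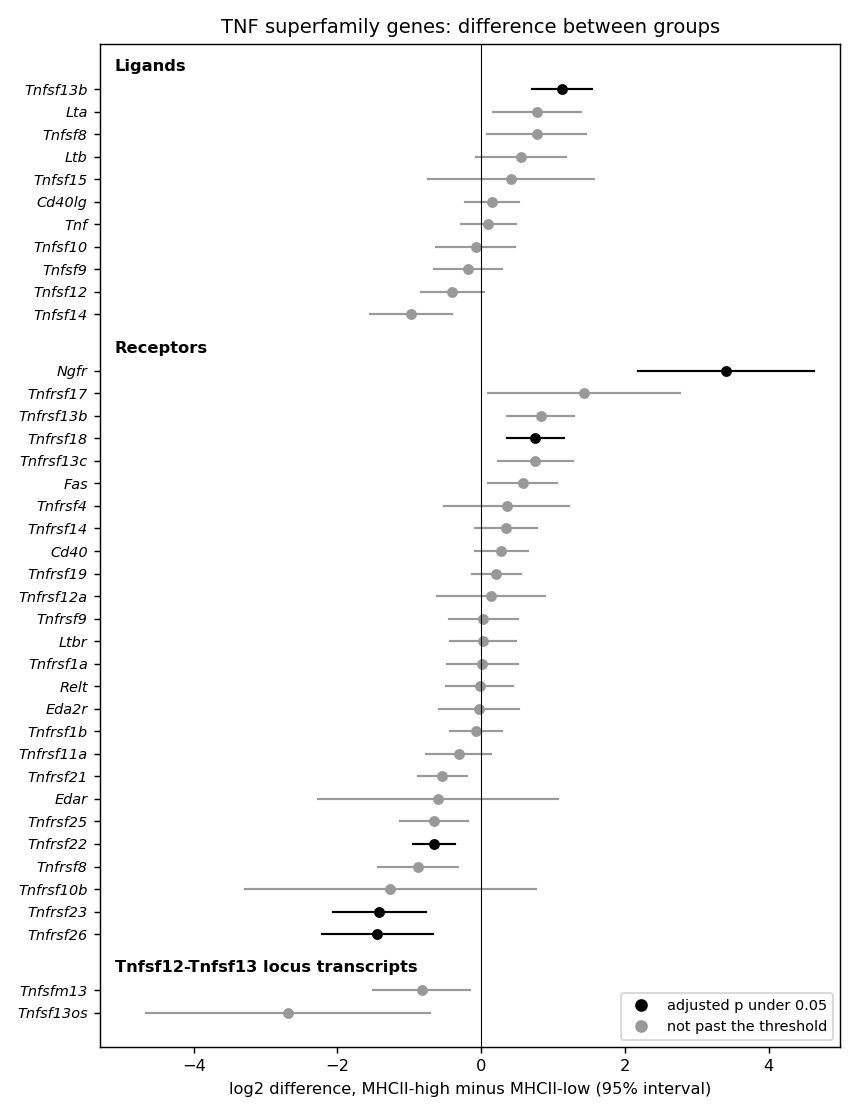
Log2 difference, MHCII-high minus MHCII-low, of each of the 39 members tested (points) with its 95% interval (lines), grouped into ligands, receptors and locus transcripts; black marks an adjusted p under 0.05 and grey the others. The 6 black points are Tnfsf13b, Ngfr and Tnfrsf18 to the right of 0 and Tnfrsf22, Tnfrsf23 and Tnfrsf26 to the left, and the intervals are widest for the dim probes of Tnfsf13os, Tnfrsf10b and Edar.

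All 8 arrays lay on 1 slide, in 2 rows: 1 MHCII-high array (20436) shared row 1 with 3 MHCII-low arrays, and 3 MHCII-high arrays shared row 2 with 1 MHCII-low array (20442). With the row as a block, 0 of 39 members passed in limma and 15 had an unadjusted p under 0.05, 8 higher and 7 lower, while the count over all genes was 465. Within each row the 6 members that changed kept their direction, and the values are given with each gene. Leaving out 1 array at a time left 2 to 4 members past the threshold.

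Markers of other cell types also differed between the groups. Of 10 dendritic cell markers, 9 rose in MHCII-high, with a median difference of 3.23 over the list, and their summed linear signal relative to the 75th percentile was 13.5 to 28.1 in MHCII-high and 2.26 to 3.19 in MHCII-low arrays. Flt3, the receptor that dendritic cells depend on, was higher by 4.47, and Ccr7, which guides migrating dendritic cells, by 3.54. Of 10 macrophage markers 1 fell, Adgre1 (by 1.69), an adhesion receptor used to mark mouse macrophages, and the summed signal was 172 to 228 in MHCII-high against 228 to 301 in MHCII-low. The part of these markers in the results below was not tested, and in bulk samples fewer cells of a type and less RNA per cell cannot be told apart.

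Ngfr rose most among the members. It encodes the low-affinity neurotrophin receptor, a family member with a death domain that binds nerve growth factor and its relatives in place of TNF ligands. Its values were 0.99, 0.16, 0.62 and 0.996 in MHCII-high and -3.06, -4.08, -1.25 and -2.45 in MHCII-low arrays. Every MHCII-high array lay above the 75th-percentile mark and every MHCII-low array below it, with the wider spread in MHCII-low. The difference was 3.40 ± 0.54 (SE, n = 4 each), or 10.6-fold (95% interval 4.52 to 24.7), with an adjusted p = 0.0123 in limma. It was 2.96 within row 1 and 3.32 within row 2, and 3.14 when the row was a block, where the adjusted p was 0.0620 in limma. Its call held in each fit that left out 1 array, with values of 2.94 to 3.89. The probe lies at chromosome 11, 95430211 to 95430270 (mm9, minus strand).

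Among the ligands Tnfsf13b rose, which encodes BAFF, the survival factor of B cells that myeloid cells make. MHCII-high arrays had -0.29, -0.75, -0.62 and -0.34, and MHCII-low arrays -1.45, -1.68, -1.95 and -1.41. The lowest MHCII-high array lay above the highest MHCII-low array by more than the whole spread within either group. The difference was 1.13 ± 0.18 (SE, n = 4 each), 2.18-fold (95% interval 1.64 to 2.91), with an adjusted p = 0.0135 in limma. Within row 1 it was 0.95 and within row 2 it was 0.99, and the call ended under the row block (0.97, adjusted p = 0.0601 in limma). It came from the brightest of 3 probes, at chromosome 8, 10035561 to 10035620 (mm9, plus strand), and the others gave 0.49 and 0.25. With the mean of the 3 probes the difference was 0.62 and did not pass (adjusted p = 0.113 in limma), a change of over 1.5 times.

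**Figure D2:**
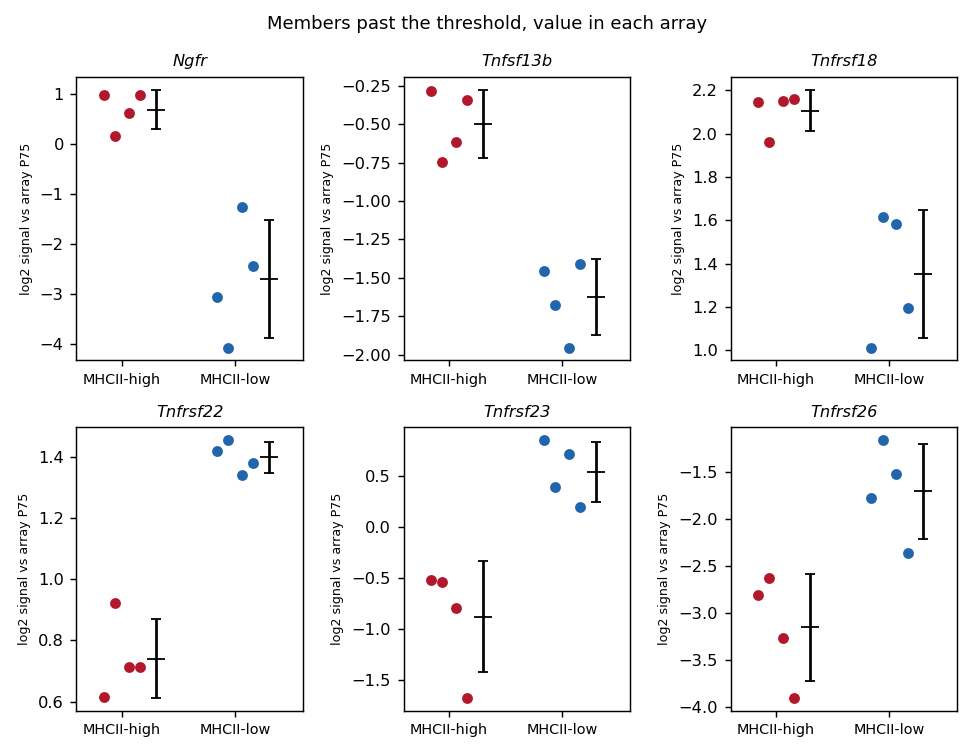
Log2 signal relative to the array's 75th percentile (P75) of the 6 members past the threshold, with 1 point per array (MHCII-high left, MHCII-low right, 4 arrays each, in the order 20435, 20436, 20439 and 20442) and the group mean ± SD as a bar. In all 6 panels the groups do not overlap, and the scales differ between panels.

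The receptors of BAFF and of its relative APRIL are found chiefly on B cells and plasma cells. All of the 3 had positive differences, and none passed the threshold. Tnfrsf13b (TACI), a receptor for both ligands, had 2.30, 1.93, 1.92 and 2.26 in MHCII-high and 1.59, 0.78, 1.30 and 1.43 in MHCII-low arrays. These groups did not overlap, and the difference was 0.83 ± 0.21 (SE, n = 4 each, adjusted p = 0.0599 in limma). Its 3 probes gave 0.62 to 1.01, and with the mean of the 3 it passed (0.82, adjusted p = 0.0428 in limma). With normexp background correction it passed too (0.79, adjusted p = 0.0215 in limma).

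Tnfrsf13c, the BAFF receptor proper, had -1.24, -0.54, -0.47 and -0.36 in MHCII-high against -1.72, -1.23, -1.50 and -1.17 in MHCII-low. MHCII-high 20435 lay among the MHCII-low arrays, and the difference was 0.75 ± 0.23 (SE, n = 4 each, adjusted p = 0.107 in limma). Without that array the difference was 0.95 and passed (adjusted p = 0.0351 in limma). Tnfrsf17 (BCMA), which plasma cells use, had -3.63, -4.24, -3.74 and -4.46 in MHCII-high against -4.84, -4.06, -7.08 and -5.81 in MHCII-low. It cleared background on all 4 MHCII-high but on 2 of 4 MHCII-low arrays, the groups overlapped, and the difference of 1.43 ± 0.58 did not pass (SE, n = 4 each, adjusted p = 0.222 in limma). With normexp background correction it was 0.32. Over BAFF and these 3 receptors the median difference was 0.98, and 1 of 4 passed. APRIL is not among them, since its probe is shared with a readthrough transcript and was at -0.83, as described with that locus.

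B cell markers were measured beside these receptors. Ms4a1, which encodes CD20, was at -0.18, and the transcription factor gene Pax5 at 0.73 (adjusted p of 0.645 and 0.118 in limma). The B cell receptor chain genes Cd79a and Cd79b were at 1.09 and 0.40, and Fcer2a at 0.03, none of them past the threshold. Their part in the values of the BAFF and APRIL receptors was not tested.

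The only costimulatory receptor to change was Tnfrsf18 (GITR), among 10 genes of that group tested. GITR is best known on regulatory and activated T cells. Its values were 2.15, 1.96, 2.15 and 2.16 in MHCII-high and 1.01, 1.61, 1.58 and 1.19 in MHCII-low arrays. The MHCII-high arrays lay close together and above every MHCII-low array. The difference was 0.76 ± 0.17 (SE, n = 4 each), 1.69-fold (95% interval 1.28 to 2.22), with an adjusted p = 0.0465 in limma, 0.56 within row 1 and 0.96 within row 2. This call ended in each of the 8 fits that left out 1 array (adjusted p of 0.0522 to 0.127 in limma) and under the row block (adjusted p = 0.139). The probe lies at chromosome 4, 155402941 to 155403000 (mm9, plus strand). Its ligand gene Tnfsf18 was above background on 0 arrays.

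T cell markers, where GITR is usually found, did not pass for any of 10 genes, with 1 at an unadjusted p under 0.05 in limma. Their summed signal was 11.6 to 16.2 in MHCII-high and 14.3 to 30.0 in MHCII-low arrays, ranges that overlapped, with the highest sum in MHCII-low. Tnfrsf4 (OX40), the next member along chromosome 4 in the GRCm38 gene order, had 0.35 ± 0.38 (SE, n = 4 each, adjusted p = 0.656 in limma).

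The other costimulatory genes did not pass. Cd40, through which helper T cells activate antigen-presenting cells, was at 0.28 (95% interval -0.08 to 0.65), and its ligand gene Cd40lg at 0.15 (-0.23 to 0.53). Tnfsf8 (CD30 ligand) was at 0.77 and its receptor gene Tnfrsf8 (CD30) at -0.88 (adjusted p of 0.200 and 0.0837 in limma), each with groups that did not overlap. The pair thus had differences of opposite sign. Tnfsf8 rested mainly on row 2, with 0.07 within row 1 and 1.69 within row 2, and its second probe cleared background on 3 MHCII-high arrays but on 1 MHCII-low array, so its 1.93 was measured largely against background. The pass with the mean of both probes (1.35, adjusted p = 0.0260 in limma) includes that probe. Tnfsf15 (TL1A) was at 0.42 and its receptor gene Tnfrsf25 (DR3) at -0.66, while Tnfrsf9, the receptor of the Tnfsf9 ligand, was at 0.03 (-0.45 to 0.51).

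All genes that fell were receptors, and they lie side by side on mouse chromosome 7. Tnfrsf22 and Tnfrsf23 encode mouse decoy receptors that bind TRAIL without a death domain, and Tnfrsf26 is the third receptor gene of the set. Tnfrsf22 had 0.62, 0.92, 0.71 and 0.71 in MHCII-high against 1.42, 1.45, 1.34 and 1.38 in MHCII-low arrays. The MHCII-low arrays lay within a narrow range above all MHCII-high arrays. The gene was lower by 1.58-fold (95% interval 1.29 to 1.93), with a difference of -0.66 ± 0.13 (SE, n = 4 each) and an adjusted p = 0.0267 in limma.

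Tnfrsf23 had -0.52, -0.54, -0.79 and -1.67 in MHCII-high against 0.85, 0.39, 0.71 and 0.19 in MHCII-low arrays. MHCII-high 20442 was the lowest of all 8, and no MHCII-high array reached the lowest MHCII-low array. The difference was -1.42 ± 0.28 (SE, n = 4 each), 2.67-fold lower (95% interval 1.70 to 4.19), with an adjusted p = 0.0292 in limma. Tnfrsf26 had -2.81, -2.63, -3.27 and -3.91 in MHCII-high against -1.78, -1.17, -1.53 and -2.36 in MHCII-low arrays. Again MHCII-high 20442 was the lowest and the groups did not overlap, with a difference of -1.45 ± 0.34 (SE, n = 4 each), 2.72-fold lower (95% interval 1.59 to 4.67), at an adjusted p = 0.0498 in limma.

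Within row 1 and row 2 the differences were -0.48 and -0.70 for Tnfrsf22, -1.19 and -1.19 for Tnfrsf23, and -1.14 and -0.97 for Tnfrsf26. With the row as a block they were -0.59, -1.19 and -1.05, and none passed in limma (adjusted p of 0.112, 0.115 and 0.145). Leaving out single arrays ended the call of Tnfrsf22 in 7 of 8 fits, all but the one without MHCII-high 20436, and that of Tnfrsf26 in 7 of 8, all but the one without MHCII-low 20442. The call of Tnfrsf23 held in 4 of 8 and ended without MHCII-high 20439, or without MHCII-low 20435, 20436 or 20439. The direction was the same in every one of these fits. With normexp background correction Tnfrsf26 was at -0.82 and still passed (adjusted p = 0.0144 in limma), a value more than 1.5 times smaller.

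The other probes of Tnfrsf22 and Tnfrsf23 had the same direction, while Tnfrsf26 had only 1 probe. The probes used lie at 150793990 to 150794049 (Tnfrsf26), 150821246 to 150821305 (Tnfrsf22) and 150851714 to 150851773 (Tnfrsf23) of chromosome 7 (mm9, minus strand). The second Tnfrsf22 probe, printed above, was at -0.56, and the other Tnfrsf23 probes were at -1.16 (the one printed above) and -2.20. The last cleared background on 1 MHCII-high array and on all 4 MHCII-low arrays, so its size was measured largely against background and it passed the filter through the MHCII-low group. Tested singly among 41179 probes, of which 5.23% passed, 1 of the 2 Tnfrsf22 probes and 2 of the 3 Tnfrsf23 probes passed, that dim one included. Their letters matched at no more positions than given above, which does not test whether a probe reads a neighbour's transcript.

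The 12 protein-coding genes nearest to the set, 6 on each side in the GRCm38 gene order, were chosen for comparison after the values of the members were seen. Of the 11 tested, 0 passed in limma and 2 had an unadjusted p under 0.05 (18.2%, near the 19.7% of all genes). Differences ran from -0.11 to 0.74 with a median of 0.14, and 2 were negative. Cars and Nap1l4 on one side were at 0.14 and -0.11, and Osbpl5 on the other side was at 0.19. Every flanking difference measured lay above those of the 3 receptors, and no test was made between them.

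**Figure D3:**
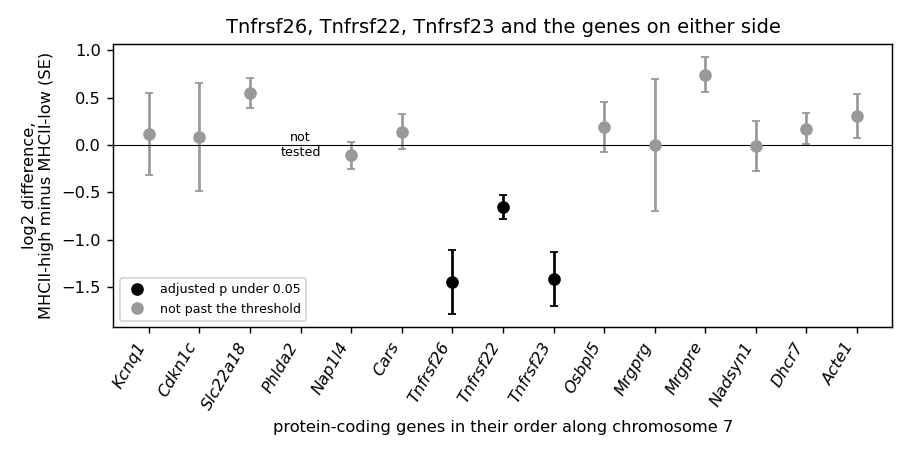
Log2 difference, MHCII-high minus MHCII-low, with its SE (bars), of Tnfrsf26, Tnfrsf22 and Tnfrsf23 and of the 6 protein-coding genes on either side, in their order along chromosome 7 and not to scale; black marks an adjusted p under 0.05 and grey the others. The 3 receptors lie between -0.66 and -1.45, and the 11 flanking genes tested lie between -0.11 and 0.74.

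Other members that neighbour each other had differences of the same sign within each set tested, and of these genes only Tnfrsf18 passed the threshold. Ltb, Tnf and Lta on chromosome 17 were at 0.55, 0.10 and 0.78, and Tnfsf9 and Tnfsf14 on the same chromosome at -0.19 and -0.98. Tnfrsf1b and Tnfrsf8 on chromosome 4 were at -0.07 and -0.88. On the same chromosome Tnfsf15 and Tnfsf8 were at 0.42 and 0.77, and Tnfrsf4 and Tnfrsf18 at 0.35 and 0.76. Tnfsf4, Tnfsf18 and Fasl on chromosome 1 did not pass the filter.

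The gene for TRAIL, the ligand of Tnfrsf22 and Tnfrsf23, did not pass. Tnfsf10 had -0.33, -0.55, -0.54 and -0.09 in MHCII-high against -0.26, 0.12, -0.94 and -0.12 in MHCII-low arrays, so the groups overlapped throughout. The difference was -0.08 ± 0.24 (SE, n = 4 each, 95% interval -0.63 to 0.48, adjusted p = 0.898 in limma). This value came from the repeat probe printed above, and whether it reads Tnfsf10 alone was not tested. The other Tnfsf10 probe cleared background on 0 MHCII-high arrays and on 1 MHCII-low array.

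The signalling TRAIL receptor gene Tnfrsf10b had -5.02, -2.71, -2.46 and -6.49 in MHCII-high against -3.73, -2.10, -2.34 and -3.45 in MHCII-low arrays. Its signal cleared background on 3 of 4 MHCII-high and on all MHCII-low arrays. The difference of -1.26 ± 0.89 did not pass (SE, n = 4 each, adjusted p = 0.482 in limma), was 0.01 within row 1 and -1.20 within row 2, and 2 other probes gave -0.48 and 0.00. With normexp background correction it was -0.33, and under the row block -0.59. Tnfrsf21 (DR6), a receptor with a death domain, had 2.18, 1.88, 1.90 and 2.03 in MHCII-high against 2.71, 2.44, 2.33 and 2.67 in MHCII-low arrays. The groups did not overlap, and the difference of -0.54 ± 0.15 missed the threshold (SE, n = 4 each, adjusted p = 0.0836 in limma), while its second probe was at -0.86 and passed when probes were tested singly (adjusted p = 0.0282 in limma).

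The 3 probes assigned to Fas, the receptor of Fas ligand, gave no single direction. The brightest, placed on chromosome 4, was at 0.58, and the 2 probes on chromosome 19 were both negative, at -0.70 and -1.15. Whether the chromosome 4 probe reads Fas was not tested. It nevertheless supplies the Fas value in the plot of member differences. Through it Fas is also counted among the 18 members with an unadjusted p under 0.05 in limma. None of the 3 passed. Fasl was above background on 2 arrays, both MHCII-low.

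TNF and the lymphotoxins, the founding members, did not pass the threshold. In this group 0 of 8 genes passed in limma and 2 had an unadjusted p under 0.05. Tnf had 3.67, 3.75, 3.64 and 3.25 in MHCII-high and 3.57, 3.60, 3.54 and 3.22 in MHCII-low arrays. The array numbered 20442 was the lowest in both groups, and the difference was 0.10 ± 0.17 (SE, n = 4 each, 95% interval -0.29 to 0.48, adjusted p = 0.797 in limma). A second Tnf probe was at -0.03.

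Tnfrsf1b, the TNF receptor found mainly on immune cells, had 4.00, 3.71, 3.62 and 3.91 in MHCII-high and 4.12, 3.68, 3.86 and 3.88 in MHCII-low arrays. The groups overlapped, with a difference of -0.07 (95% interval -0.43 to 0.28), although a second probe gave 0.45. Tnfrsf1a, the widely expressed TNF receptor with a death domain, was at 0.02 (-0.48 to 0.51) with a second probe at -0.35, and Ltbr, the lymphotoxin beta receptor, at 0.03 (-0.43 to 0.49). The intervals of fold size reached 1.35 for Tnfrsf1b, 1.42 for Tnfrsf1a and 1.40 for Ltbr, so differences up to these sizes are not excluded.

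**Figure D4:**
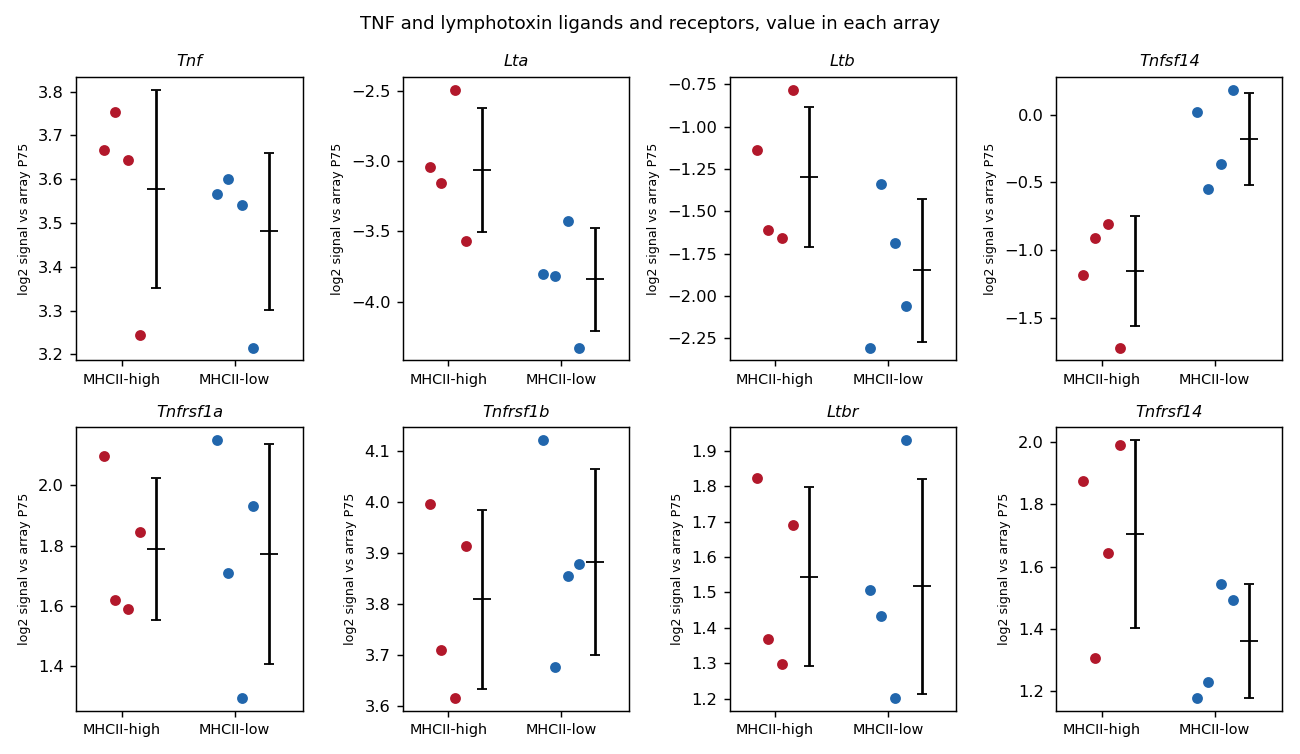
Log2 signal relative to the array's 75th percentile (P75) of 4 ligands (top) and 4 receptors (bottom) of the TNF and lymphotoxin group, with 1 point per array (MHCII-high left, MHCII-low right, 4 arrays each) and the group mean ± SD as a bar. Only for Tnfsf14 do the groups not overlap, with MHCII-high between -1.72 and -0.81 and MHCII-low between -0.55 and 0.18.

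Lta and Ltb, which encode the lymphotoxins, were at 0.78 and 0.55 (adjusted p of 0.150 and 0.315 in limma). Tnfsf14 (LIGHT), a ligand of both the lymphotoxin beta receptor and HVEM, had -1.18, -0.91, -0.81 and -1.72 in MHCII-high against 0.02, -0.55, -0.36 and 0.18 in MHCII-low arrays. Its groups did not overlap, and the difference of -0.98 ± 0.25 missed the threshold (SE, n = 4 each, adjusted p = 0.0663 in limma). It passed with normexp background correction (-0.84, adjusted p = 0.0138 in limma) and with probes above background on all 8 arrays (adjusted p = 0.0424). Its receptor gene Tnfrsf14 (HVEM) was at 0.34 (95% interval -0.09 to 0.77).

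The remaining members with the highest signals among ligands and receptors also overlapped between the groups. Tnfsf12 (TWEAK) had 1.11, 0.84, 0.75 and 0.56 in MHCII-high against 1.57, 1.04, 0.94 and 1.32 in MHCII-low arrays. Relt, a receptor found mainly in blood cells and lymphoid tissue, had 4.71, 4.40, 4.33 and 4.51 in MHCII-high against 4.55, 4.98, 4.10 and 4.41 in MHCII-low arrays. The high signal of Relt rests on 1 probe. Its other probes averaged -1.86 and -2.72 in MHCII-high and -2.21 and -2.52 in MHCII-low arrays, with differences of 0.35 and -0.20. Tnfsf9, the ligand of Tnfrsf9, had 0.44, 0.53, 0.15 and -0.19 in MHCII-high against 0.65, 0.42, 0.54 and 0.08 in MHCII-low arrays. No gene of the 3 separated the groups. The differences were -0.40, -0.02 and -0.19 for Tnfsf12, Relt and Tnfsf9, with adjusted p of 0.294, 0.967 and 0.666 in limma.

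In the RANK and TWEAK group 0 of 3 genes passed, with 0 at an unadjusted p under 0.05 in limma. Tnfrsf11a (RANK), which drives osteoclast formation from the macrophage lineage, was at -0.31 (95% interval -0.77 to 0.14), and Tnfrsf12a, the TWEAK receptor, at 0.14 (-0.61 to 0.89). Among the receptors of ectodermal and neural tissue, Edar, Eda2r and Tnfrsf19 were at -0.61, -0.03 and 0.21. Other probes of Tnfrsf19 were at -0.09 and -0.62, so that gene gave no single direction. Edar cleared background on 3 of 4 MHCII-high and on all MHCII-low arrays.

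The transcripts of the Tnfsf12 and Tnfsf13 locus on chromosome 11 were lower in every MHCII-high array than in any MHCII-low array, and neither passed. Tnfsf13os, a transcript named as antisense to Tnfsf13 and read by a probe on the opposite strand, had -3.41, -3.83, -7.21 and -6.83 in MHCII-high against -2.40, -2.87, -2.08 and -3.17 in MHCII-low arrays. The labels do not say that the labelled product kept its strand, so signal of transcripts from both strands cannot be told apart. It cleared background on 2 of 4 MHCII-high and on all MHCII-low arrays, and the difference was -2.69 ± 0.86 (SE, n = 4 each, adjusted p = 0.126 in limma). With normexp background correction the difference was -0.78 and passed (adjusted p = 0.0346 in limma). Tnfsfm13, the readthrough of Tnfsf12 into Tnfsf13, shares its probe with Tnfsf13 (APRIL), so the 2 genes cannot be told apart. Tnfsfm13 had 1.35, 0.81, 0.36 and -0.17 in MHCII-high against 1.42, 1.39, 1.43 and 1.43 in MHCII-low arrays. MHCII-high 20435 thus lay only just under the MHCII-low arrays. The difference was -0.83 ± 0.30 (SE, n = 4 each, adjusted p = 0.164 in limma).

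The other 8 members did not pass the filter of 4 arrays above background. Cd70, Tnfrsf11b (the RANK ligand decoy osteoprotegerin), Tnfsf4 and Tnfsf18 were above background on 0 arrays, Eda on 1, Fasl and Tnfsf11 (RANK ligand) on 2 each and Cd27 on 3. No difference was tested for these. In 18 of the 39 genes more than 1 probe passed the filter, the probes of 11 of them had the same sign, and in 4 they differed by more than 1 log2 unit.

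In signalling around the family, 65 genes of 5 lists were tested, the last list being that of genes for processing of the ligands. Of the 65, 6 rose in MHCII-high (9.23%, against 2.70% of all genes) and none fell (2.25% of all genes). An unadjusted p under 0.05 in limma was found for 28 (43.1%, against 19.7% of all genes). The median signal was 1.57 over the 65 and -1.28 over all genes, and shares among genes of like signal were not compared. Among TRAFs and adaptors 2 of 22 rose, and the list median was -0.06. Traf1, an NF-kB target that binds several of the receptors through Traf2, averaged 0.29 ± 0.50 in MHCII-high and -1.33 ± 0.25 in MHCII-low (SD, n = 4 each). The difference was 1.62 ± 0.26 (SE, adjusted p = 0.0135 in limma with n = 4 each). Traf3ip3, a binding partner of Traf3, rose by 0.89 (adjusted p = 0.0209 in limma).

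Of NF-kB subunits and their kinases 2 of 9 rose and 8 of 9 had positive differences (list median 0.36). Map3k14, which encodes NIK, the kinase of the alternative route used by BAFF, CD40 and lymphotoxin beta receptors, averaged 2.37 ± 0.30 in MHCII-high and 1.18 ± 0.26 in MHCII-low (SD, n = 4 each). It rose by 1.18, and Nfkb1 by 0.65 (adjusted p of 0.0161 and 0.0274 in limma). The partner subunits of the alternative route, Nfkb2 and Relb, were at 0.52 and 0.31, and Rel at 0.95, none of them past the threshold.

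Among inhibitors of NF-kB 2 of 12 rose (list median 0.15). Tnip3, which limits NF-kB activation together with Tnfaip3, averaged 1.76 ± 0.06 in MHCII-high and -0.18 ± 0.46 in MHCII-low (SD, n = 4 each) and rose by 1.94 (adjusted p = 0.00427 in limma). Nfkbie, an inhibitor of the IkB family, rose by 1.01 (adjusted p = 0.0162 in limma). Nfkbia was at -0.30 and Tnfaip3 at -0.42, neither past the threshold. The rises thus fell on members that activate NF-kB and on members that restrain it.

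**Figure D5:**
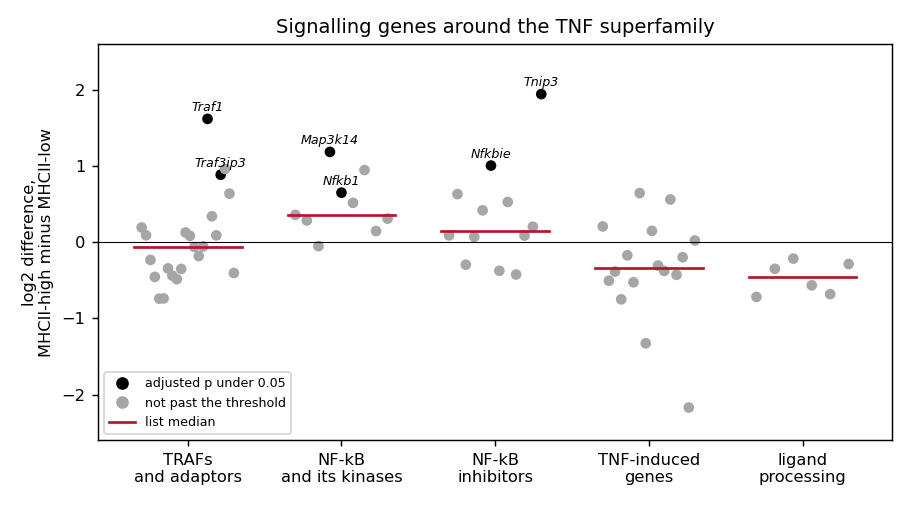
Log2 difference, MHCII-high minus MHCII-low, of the 65 genes tested in 5 lists of signalling around the TNF superfamily, with 1 point per gene (black for an adjusted p under 0.05, grey for the others) and the list median as a red line. The named black points are the 6 genes that rose, 2 in each of the first 3 lists, and no gene of the last 2 lists passed.

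Of 16 genes that TNF is known to induce 0 passed in limma, with 7 at an unadjusted p under 0.05 and a list median of -0.34. Vcam1, an adhesion molecule, was at -2.17 and the cytokine gene Il6 at -1.33 (adjusted p of 0.0788 and 0.0599 in limma), while Il1b was at 0.64 (adjusted p = 0.0786). Differences of both signs thus stood among these genes. Of 6 genes for the proteases that release or process the ligands, and their regulators, 0 passed in limma, 2 had an unadjusted p under 0.05 and all 6 differences were negative (median -0.46). Adam10 and Rhbdf2, which helps to bring the TNF-releasing protease Adam17 to the surface, were at -0.72 and -0.68.

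Blocking on slide row, 2 of the 65 passed (3.08%, against 1.66% of all genes), Tnip3 (2.17, adjusted p = 0.0084 in limma) and Nfkbie (1.11, adjusted p = 0.0437). The block ended the calls of Traf1, Traf3ip3, Map3k14 and Nfkb1 (adjusted p of 0.0642, 0.0896, 0.0509 and 0.108 in limma). Leaving out MHCII-high 20439 left 3 of 65 past the threshold.

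Promoter windows, from 250 bases before to 50 after a gene's start, were found in RefSeq (GRCm38.p6) for 36 of the 47 members, 40 windows in all. They were searched on both strands for motifs chosen after the values were seen. The NF-kB consensus stood in 3 of 40 windows (7.50%) and in 4.51% of all 32851, GAAANNGAAA, the letters of an interferon response element, in 4 (10.0%) and in 3.44%, and TTCNNNGAA, the letters of a STAT site, in 9 (22.5%) and in 8.30%. The NF-kB consensus was found for Ltb, Tnfrsf8 and Tnfrsf9, none of which passed. Such matches describe letters and not binding. The windows of Tnfsf13b and Tnfrsf18 are printed as those of genes that rose and hold a match, with GAAANNGAAA in capitals in the first and TTCNNNGAA, which reads the same on both strands, in the second.
Tnfsf13b (GRCm38.p6 chr8:10006383-10006682, plus strand): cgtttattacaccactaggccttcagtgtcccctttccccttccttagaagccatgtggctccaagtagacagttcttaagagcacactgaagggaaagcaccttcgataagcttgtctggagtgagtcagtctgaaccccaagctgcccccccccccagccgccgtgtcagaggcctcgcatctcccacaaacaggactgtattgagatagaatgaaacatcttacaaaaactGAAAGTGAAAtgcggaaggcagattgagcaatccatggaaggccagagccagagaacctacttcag
Tnfrsf18 (GRCm38.p6 chr4:156026072-156026371, plus strand): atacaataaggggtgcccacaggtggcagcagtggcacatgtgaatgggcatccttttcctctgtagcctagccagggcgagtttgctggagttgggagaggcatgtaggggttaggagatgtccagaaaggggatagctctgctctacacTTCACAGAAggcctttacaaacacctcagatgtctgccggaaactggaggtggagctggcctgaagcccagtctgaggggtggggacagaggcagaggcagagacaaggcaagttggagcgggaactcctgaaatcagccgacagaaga
The matches begin 16 bases before the gene start of Tnfsf13b and 99 bases before that of Tnfrsf18.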

How the data were processed

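Each of 8 arrays held 62976 spots, of which 3671 were controls. The deposited scanner files give linear spot intensity in 1 colour (Cy5), made with Agilent Feature Extraction 11.5.1.1 and background-subtracted and detrended within the array, per the file headers. The deposited series table holds log2 values of the authors, with array medians of 9.38137 to 9.38149, and how they were made is not given in the sources used here. Its columns followed the log2 signal of their own arrays at r of 0.998 to 0.9998 across probes, which settles scale and direction, with no centring of genes. RNA had been amplified with the Sigma WTA2 kit, per the labels, which can change ratios between transcripts.

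Controls and outlier spots (67 to 160 per array) were left out, and 0 spots were saturated. The log2 signal was set relative to the 75th percentile of each array. A probe was kept if well above background on 4 or more of the 8 arrays (38755 to 42086 of 56605 probes were so per array, or 68.5 to 74.4%), and the brightest probe per gene was used. The number of arrays limits the precision. The MHCII-high samples were compared with the MHCII-low samples in limma 3.58.1 (R 4.3.3) with lmFit and eBayes, two-sided, with Benjamini-Hochberg adjustment over all genes tested, and the script was tested on simulated data. Gene names came from RefSeq through the probe's accession where they matched, and otherwise from the array's design. No mm9 annotation was used here, so exons and UTRs are not given.

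The members and lists were chosen with earlier results of these data known. Values in every array are given for members past the threshold, members with an absolute difference of 1 or more, partners of those that passed, and the 3 ligands and 3 receptors with the highest signal, which is not a ranking of transcripts. From the signalling lists, genes past the threshold and up to 3 others were named, with a few beyond this rule chosen after their values were seen. Of the marker lists only some genes were named, and not every one past the threshold. Alternatives were quantile normalization, normexp background correction with an offset of 50, the authors' series table, 2 other filters, the mean over probes, the slide row or the label number as a block, and leaving out each array. One marker result is not reported here.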

Additional observations from a re-analysis of the deposited data

Results flagged for a closer look

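In 3 of 78 groups of 4 arrays, 1 array stood apart from the other 3 by Dixon's test at the 95% level, which chance does in about 1 of 20 groups. Tnfrsf18 in MHCII-high had 1.96 in array 20436, with the others at 2.15 to 2.16. Tnf in MHCII-low had 3.22 in array 20442, with the others at 3.54 to 3.60. Tnfsf8 in MHCII-low had -2.01 in array 20442, with the others at -1.04 to -0.96. Without array 20436 the difference of Tnfrsf18 was 0.80, against 0.76 with it, and it did not pass in limma (adjusted p = 0.0768).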

How the results depend on the processing

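The count of 6 of 39 members past the threshold stood beside 4.95% of all genes. It was 8 with quantile normalization (5.3% of all genes), 10 with normexp (4 higher, 6 lower, 6.76% of all genes) and 7 in the authors' series table (5.26%). It was 4 of 47 with no filter (2.91% of all genes), 8 of 35 with the filter on all 8 arrays (6.78%) and 8 with the mean over probes (5.21%). Blocking on slide row it was 0 (0 higher, 0 lower, 15 at an unadjusted p under 0.05 in limma), against 1.66% of all genes. Leaving out single arrays gave 2 to 4 members, 2 to 3 higher and 0 to 2 lower. It was 2 without MHCII-high 20439 and without MHCII-low 20435, 20436 or 20439, and 3 without MHCII-high 20442. For all genes the count of 1385 became 465 with the row block and 556 to 1161 without single arrays, and for the signalling lists the count of 6 became 10 with normexp, 2 with the row block, 11 with the mean over probes and 3 to 6 without single arrays. The median over members stayed between -0.08 and 0.08. Over the 39 members and these alternatives, 570 values kept their side of the threshold, 37 dropped below it and 13 came past it. A called direction was reversed in 0. The 570 include values of members not called whose sign changed, such as Fas (0.58, and -0.42 at its lowest over the alternatives). The cause of these changes was not tested. Same-numbered arrays of the groups correlated at 0.188, 0.127, 0.210 and 0.083 in their deviations for 20435, 20436, 20439 and 20442, and every array correlated best with its own number, a hint from the data and not from the labels. With the label number as a replicate block 810 genes, 4 members (Ngfr, Tnfsf13b, Tnfrsf23 and Tnfrsf26) and 2 signalling genes passed. Dim probes on only some arrays limit Tnfsf13os, Tnfrsf17, Tnfrsf10b, Edar and Tnfsf15.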
